A study of Mus musculus with 6 samples.

Results

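The genes that make serine, glycine, one-carbon folates, asparagine and proline were followed in sorted mouse microglia with 1 or 0 intact copies of *Bhlhe41*, which encodes a transcriptional repressor. They were *Phgdh*, *Psat1* and *Psph* (serine), *Shmt1* and *Shmt2* (serine to glycine), *Mthfd2* and *Mthfd1l* (mitochondrial folate), *Asns* (asparagine), and *Aldh18a1* and *Pycr1* (proline). The 10 genes, of 23462 measured, were chosen with their change between the genotypes already known, so every value below that sets their levels in one genotype against the other is a description and carries no test. They were read by 15 of the 56601 array probes tested, taken as every non-control probe whose designed transcript belongs to one of the 10 genes. Among the genes, 5 had 1 probe and 5 had 2.

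Serine is built in the cytosol from an intermediate of glycolysis. A dehydrogenase (Phgdh), an aminotransferase (Psat1) and a phosphatase (Psph) act one after another. Serine hydroxymethyltransferases, cytosolic Shmt1 and mitochondrial Shmt2, split serine into glycine and a one-carbon unit carried on folate, and the mitochondrial enzymes Mthfd2 and Mthfd1l oxidise that unit and release it as formate for purine, thymidylate and methionine synthesis. Asns makes asparagine from aspartate and glutamine, Aldh18a1 and Pycr1 make proline from glutamate, and many of these genes are known targets of the amino acid response factor Atf4.

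The samples were RNA from microglia of mice aged 3 months, carrying 1 copy (Bhlhe41 dTomato-Cre/+, called B41HET, the control) or 2 copies (Bhlhe41 dTomato-Cre/dTomato-Cre, called B41KO) of a knock-in allele, with 3 samples per genotype. In that allele a cassette encoding dTomato and Cre, followed by a polyadenylation signal, lies ahead of the *Bhlhe41* start codon. The *Bhlhe41* promoter drives the cassette, and the cassette prevents translation of Bhlhe41. The controls thus also carried dTomato, Cre and a single disrupted copy, and no wild-type sample was on these arrays. Live CD45lo Cx3cr1+ CD11b+ brain cells were sorted, and 10 to 15 mice were pooled for each sample. The labels instead speak of 3 mice per group, and the samples were taken here as 3 separate pools. The labels name no treatment.

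Each sample was read on a 1-colour Agilent array, and values are log2 signals after quantile normalization. A probe was called when the limma model over all probes gave an adjusted p of at most 0.05 and an absolute log2 fold change of at least 0.5. The brightest probe stood for a gene. Per array, 70.1% to 75.5% of 56605 probes gave signal well above background, and 0 spots were saturated. All 6 arrays shared a slide, with the 3 B41HET arrays and B41KO replicate 1 in row 1 and B41KO replicates 2 and 3 in row 2. The 2 *Bhlhe41* probes were not lower in the samples labelled B41KO (log2 fold changes of 0.38 and 0.33, neither called), and with this allele the transcript does not check the labels. All 12 microglia markers were well above background on all arrays, and their summed signal was 171200 to 186200 in B41HET and 164900 to 173600 in B41KO. Among them *Fcrls* was called lower (-0.76), and 6 of 12 did not overlap between the genotypes, beside 32.2% of all genes. Markers of other cells moved with genotype. The summed signal of 10 neutrophil markers was 31130 to 35080 in B41HET and 5802 to 6297 in B41KO (9 called lower), and 5 of 10 border macrophage and 5 of 9 immature neutrophil markers were also called lower. Of 10 endothelial markers only *Ly6c1* (-1.79) and *Pecam1* (-1.68) were called lower, and the list's median was -0.07. Well above background on all 6 arrays were 10 of 10 neutrophil, 7 of 10 border macrophage, 7 of 9 immature neutrophil and 6 of 10 endothelial markers. Whether these cells have a part in the values below was not tested. Fewer cells of a type and less RNA per cell cannot be told apart in such samples.

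Across the 10 genes the genotype difference was uneven. *Phgdh*, 1 of 10 genes by the brightest probe, was called higher in B41KO, beside 1.44% of all genes, and 0 of 10 were called lower, beside 4.01%. The dimmer probes of *Psat1* and *Asns* were also called higher, which makes 3 of 15 probes beside 1.72% of all probes, while 0 of 15 were called lower beside 3.34%. Since the genes were picked on this contrast, nothing is read from these shares. By the brightest probe 5 genes had a positive and 5 a negative log2 fold change, with a median of -0.003 against 0.007 over all genes. The genotypes did not overlap in 6 of 10 genes (32.2% of all genes), namely *Phgdh*, *Psat1* and *Asns*, higher in every B41KO sample, *Shmt2* and *Mthfd2*, lower in every B41KO sample, and *Psph*, whose values lay too close to background for their order to be read.

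**Figure D1:**
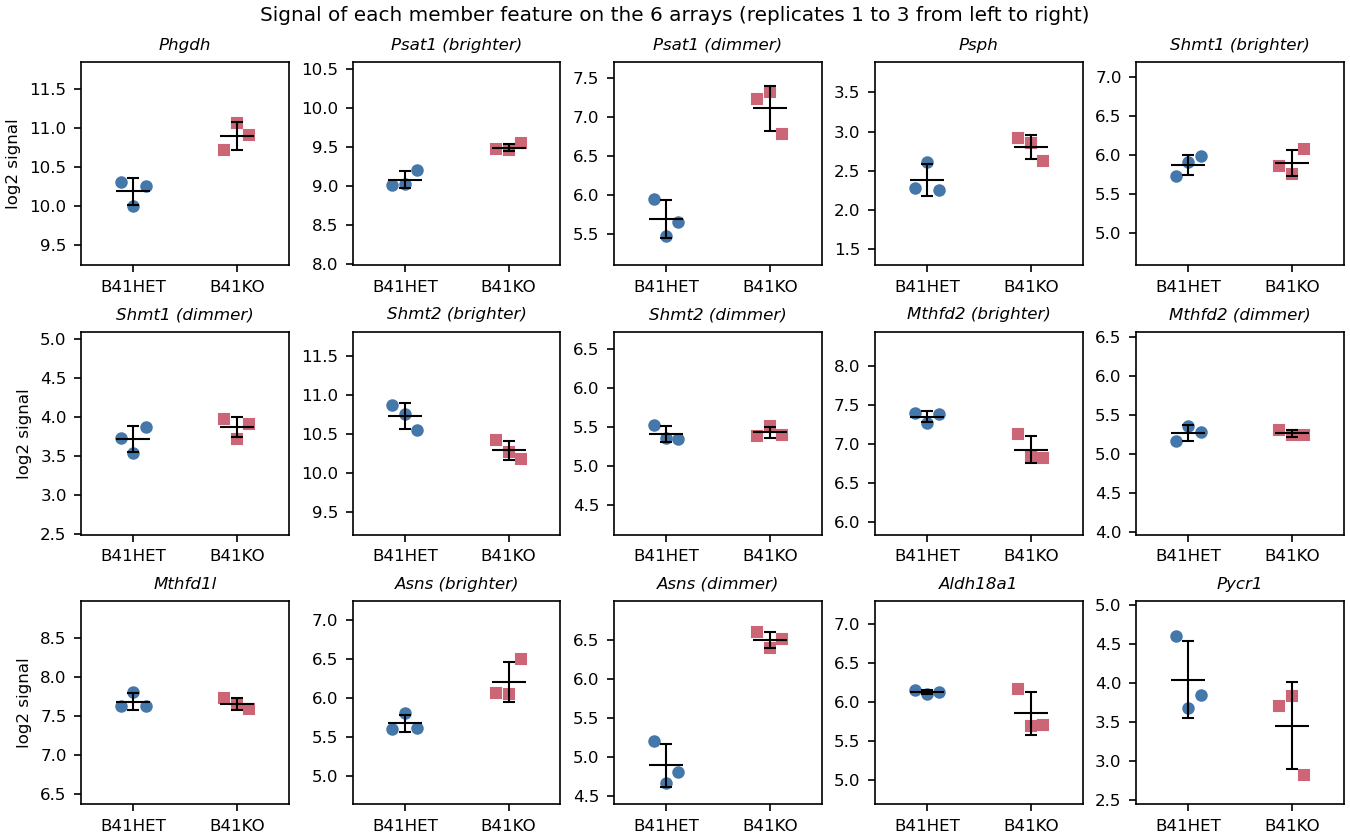
Log2 signal of each of the 15 probes of the 10 genes in each sample, with 3 B41HET samples (circles) and 3 B41KO samples (squares), replicates 1 to 3 from left to right, and bars for the mean and SD. Every panel spans the same range of log2 units, so distances compare between panels, and the dimmer *Asns* and *Psat1* probes show the widest separation of the genotypes.

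Because many of these genes are known Atf4 targets and Bhlhe41 binds a known motif, the RefSeq promoters of the 10 genes (GRCm38.p6, 250 bases before to 50 after a transcription start) were searched on both strands. The motifs were the E-box CACGTG, which the study gives as the site bound by Bhlhe41, and TGATGNAA, the core of the C/EBP-ATF response element, and the motifs share no overlap here. CACGTG was found in *Aldh18a1* alone, at position -59 from the start, and it is present in 7.15% of 32851 promoter windows in the table. TGATGNAA was found in *Asns* at -23 and in *Pycr1* at -103, and it is present in 3.97% of the windows. No match in the other windows says only that these letters are absent there. The 250 bases before the start are shown for the 3 genes with a match, with the match in capitals, and for the other 2 genes with a called probe, *Phgdh* and *Psat1*, which had none. All run 5′ to 3′ along the gene's strand, which is the minus strand in each case, and *Psat1* has 2 annotated starts.
Asns, chr6:7693210-7693459: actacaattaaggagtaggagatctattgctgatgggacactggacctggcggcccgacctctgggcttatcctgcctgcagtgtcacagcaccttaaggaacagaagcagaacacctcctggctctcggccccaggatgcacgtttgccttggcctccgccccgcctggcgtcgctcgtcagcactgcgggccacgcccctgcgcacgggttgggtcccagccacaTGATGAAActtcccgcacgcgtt
Pycr1, chr11:120643749-120643998: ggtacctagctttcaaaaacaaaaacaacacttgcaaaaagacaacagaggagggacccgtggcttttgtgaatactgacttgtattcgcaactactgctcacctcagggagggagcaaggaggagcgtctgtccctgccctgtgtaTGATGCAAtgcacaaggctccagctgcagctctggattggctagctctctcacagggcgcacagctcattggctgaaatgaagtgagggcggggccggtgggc
Aldh18a1, chr19:40588464-40588713: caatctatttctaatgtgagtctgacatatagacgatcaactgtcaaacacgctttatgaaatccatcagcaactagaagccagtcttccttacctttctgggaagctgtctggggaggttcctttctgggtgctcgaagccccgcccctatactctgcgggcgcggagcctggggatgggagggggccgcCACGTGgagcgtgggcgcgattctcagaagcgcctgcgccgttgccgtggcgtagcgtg
Phgdh, chr3:98339970-98340219: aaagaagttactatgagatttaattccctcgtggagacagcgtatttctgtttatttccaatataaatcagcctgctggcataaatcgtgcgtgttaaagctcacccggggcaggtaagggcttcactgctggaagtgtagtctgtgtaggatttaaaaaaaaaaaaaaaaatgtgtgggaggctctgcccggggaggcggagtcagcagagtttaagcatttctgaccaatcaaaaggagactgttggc
Psat1 upstream start, chr19:15925060-15925309: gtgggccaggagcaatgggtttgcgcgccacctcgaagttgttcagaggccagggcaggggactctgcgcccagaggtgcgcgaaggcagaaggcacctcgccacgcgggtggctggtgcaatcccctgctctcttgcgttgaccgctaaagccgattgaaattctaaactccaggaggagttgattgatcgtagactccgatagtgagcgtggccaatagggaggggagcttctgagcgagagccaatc
Psat1 downstream start, chr19:15924623-15924872: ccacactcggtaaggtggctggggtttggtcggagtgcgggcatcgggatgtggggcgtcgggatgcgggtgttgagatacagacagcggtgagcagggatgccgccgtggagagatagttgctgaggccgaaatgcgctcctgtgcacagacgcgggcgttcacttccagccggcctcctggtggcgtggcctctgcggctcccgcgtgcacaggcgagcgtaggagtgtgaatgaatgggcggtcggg
Among these 5 genes, a match and a called probe came together only in *Asns*. *Pycr1* and *Aldh18a1* carried a match and were not called, and *Phgdh* and *Psat1* had a called probe and no match.

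*Phgdh*, which commits the glycolytic intermediate to serine, was read by 1 bright probe. Its log2 signals were 10.31, 9.996 and 10.26 in B41HET and 10.71, 11.07 and 10.91 in B41KO. Every B41KO sample lay above every B41HET sample, with 0.40 between the nearest. The log2 fold change was 0.71 (SE 0.13, n = 3 per genotype), or 1.63-fold, and the median spot signal before normalization was 1176 to 1999 over a background of 18 to 19. Within slide row 1, B41KO replicate 1 lay 0.53 above the B41HET mean. The fold change stayed between 0.53 and 0.80 under all 17 alternatives, but the call was kept in 9 of them and was lost with any 1 of the 6 arrays left out and with slide row or replicate number as a block. Phgdh is also known as an enzyme of astrocytes. The summed signal of 11 astrocyte markers was 3420 to 3612 in B41HET and 3704 to 3905 in B41KO, with 0 of 11 called and a median log2 fold change of 0.03. The 2 of 11 markers without overlap (32.2% of all genes), *Gja1* (-0.25) and *Slc4a4* (-0.40), were lower in B41KO, opposite to the sum. All 11 astrocyte markers were well above background on all 6 arrays, and the part of astrocytes in the *Phgdh* values was not tested.

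*Psat1*, the aminotransferase of the second step, was read by 2 probes designed on the same transcript, and the size of the difference depended on the probe. The brighter one gave 9.01, 9.02 and 9.21 in B41HET and 9.47, 9.46 and 9.55 in B41KO, without overlap. Its log2 fold change of 0.41 (SE 0.08, n = 3) was under the fold limit, so it was not called. The dimmer one gave 5.94, 5.47 and 5.65 in B41HET and 7.22, 7.32 and 6.77 in B41KO, with 0.83 between the nearest samples. That is a log2 fold change of 1.42 (SE 0.19, n = 3), or 2.67-fold, which was called. Both probes were thus higher in all B41KO samples, and the dimmer one differed by 1.01 more on the log2 scale. The SE of 0.21 for this takes the 2 probes as independent, though both were read on the same samples. The call of the dimmer probe was kept in 9 of 15 alternatives. It was lost without B41HET replicate 2 or 3, without B41KO replicate 1 or 2 and with either block, and its log2 fold change was 0.90 with normexp background correction.

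*Psph*, the phosphatase of the last step, was close to background. Its log2 signals were 2.28, 2.61 and 2.24 in B41HET and 2.91, 2.85 and 2.62 in B41KO. The probe was well above background on 0 of 3 B41HET arrays and 1 of 3 B41KO arrays, and the spot signal was 1.53 to 1.82 times the background. The highest B41HET and the lowest B41KO sample were 0.01 apart, and the log2 fold change of 0.42 (SE 0.14, n = 3) was not called. With normexp background correction the log2 fold change was 0.05, so the order of these values is not read. The first and second steps of serine synthesis thus lay higher in every B41KO sample on the 3 probes of *Phgdh* and *Psat1*, 2 of which were called, and the third was not measured well enough to place.

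The enzymes that split serine were not called on any of their probes, and the probes of *Shmt2* differed from each other. *Shmt1*, the cytosolic form, gave 5.74, 5.91 and 5.99 in B41HET and 5.86, 5.76 and 6.08 in B41KO on its brighter probe, with overlap and a log2 fold change of 0.02 (SE 0.12, n = 3). Its dimmer probe also overlapped (0.15, SE 0.12). *Shmt2*, the mitochondrial form, gave 10.87, 10.76 and 10.55 in B41HET and 10.42, 10.26 and 10.18 in B41KO on its brighter probe. Every B41KO sample lay below every B41HET sample, by 0.13 between the nearest. The log2 fold change of -0.44 (SE 0.12, n = 3) was not called, and it was -0.31 within slide row 1. The dimmer *Shmt2* probe was designed on another annotated transcript, and its values, 5.34 to 5.52 in B41HET and 5.38 to 5.51 in B41KO, overlapped (0.03, SE 0.09).

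Among the mitochondrial folate enzymes, *Mthfd2*, a dehydrogenase and cyclohydrolase known for its high level in embryonic and dividing cells, resembled *Shmt2*. Its brighter probe gave 7.39, 7.27 and 7.38 in B41HET and 7.13, 6.84 and 6.82 in B41KO, without overlap. The log2 fold change of -0.42 (SE 0.11, n = 3) was not called, and within slide row 1 it was -0.22. The dimmer *Mthfd2* probe, on the same transcript, gave 5.16 to 5.36 in B41HET and 5.24 to 5.31 in B41KO and did not separate the genotypes (-0.005, SE 0.08). *Mthfd1l*, the synthetase that frees formate in mitochondria, gave 7.62, 7.80 and 7.62 in B41HET and 7.73, 7.65 and 7.58 in B41KO, with overlap (-0.03, SE 0.09). The mitochondrial steps were thus lower in every B41KO sample on 1 probe each of *Shmt2* and *Mthfd2*, were called on none, and overlapped on the other 3 of 5 probes. The 12 dividing cell markers, which bear on *Mthfd2*, had a median log2 fold change of -0.32 and 2 positive values. Among them 7 of 12 did not overlap, beside 32.2% of all genes. Of these, *Top2a* (-1.07) and *Ccna2* (-0.63) were called lower, *Ccnb1* (2.14) was called higher, and *Mki67* (-0.42) was not called. Their summed signal, 2226 to 2406 in B41HET and 2199 to 2320 in B41KO, is dominated by *Pcna* (-0.29) and holds the opposite change of *Ccnb1*. The part of dividing cells in the *Mthfd2* values was not tested.

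*Asns*, the asparagine synthetase, had the largest difference of the 15 probes, on its dimmer probe. That probe gave 5.20, 4.67 and 4.80 in B41HET and 6.59, 6.39 and 6.51 in B41KO, with 1.19 between the nearest samples. The log2 fold change was 1.61 (SE 0.15, n = 3), or 3.04-fold, and within slide row 1 it was 1.70. This call was kept with each array left out in turn and in 13 of 15 alternatives. It was lost with replicate number as a block (same log2 fold change) and with slide row as a block, and its log2 fold change was 0.69 with normexp background correction. The brighter probe, on the same transcript, gave 5.61, 5.81 and 5.62 in B41HET and 6.07, 6.05 and 6.51 in B41KO. It did not overlap either, but its log2 fold change of 0.53 (SE 0.15, n = 3) was not called. The names brighter and dimmer rest here on close means over all arrays, 5.94 and 5.70. In B41HET the means were 5.68 and 4.89, but in B41KO they were 6.21 and 6.50, the reverse order. Which probe stood for *Asns*, and so its status as not called, depended on this small gap. The probes differed by 1.08 in log2 fold change, with an SE of 0.21 that again takes them as independent. Over the 8057 genes with several probes, the 2 brightest differed by a median of 0.27, with a 90th percentile of 0.73, so the *Asns* and *Psat1* pairs lay beyond that percentile.

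The enzymes of proline synthesis overlapped between the genotypes. *Aldh18a1*, which activates glutamate, gave 6.16, 6.10 and 6.13 in B41HET and 6.18, 5.69 and 5.71 in B41KO. B41KO replicate 1, in the slide row of the B41HET arrays, lay at their level (0.04 above their mean), and the other two, in row 2, lay 0.43 below it on average. Slide row and the spread between B41KO samples cannot be told apart here. *Pycr1*, which closes the pathway, gave 4.61, 3.68 and 3.84 in B41HET and 3.71, 3.83 and 2.82 in B41KO, and was well above background on 3 of 3 and 2 of 3 arrays. Its log2 fold change of -0.59 (SE 0.36, n = 3) had the largest error of the 15 probes. It was -0.31 without B41HET replicate 1, -0.27 without B41KO replicate 3, -0.33 with the slide row block and -0.09 with normexp.

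**Figure D2:**
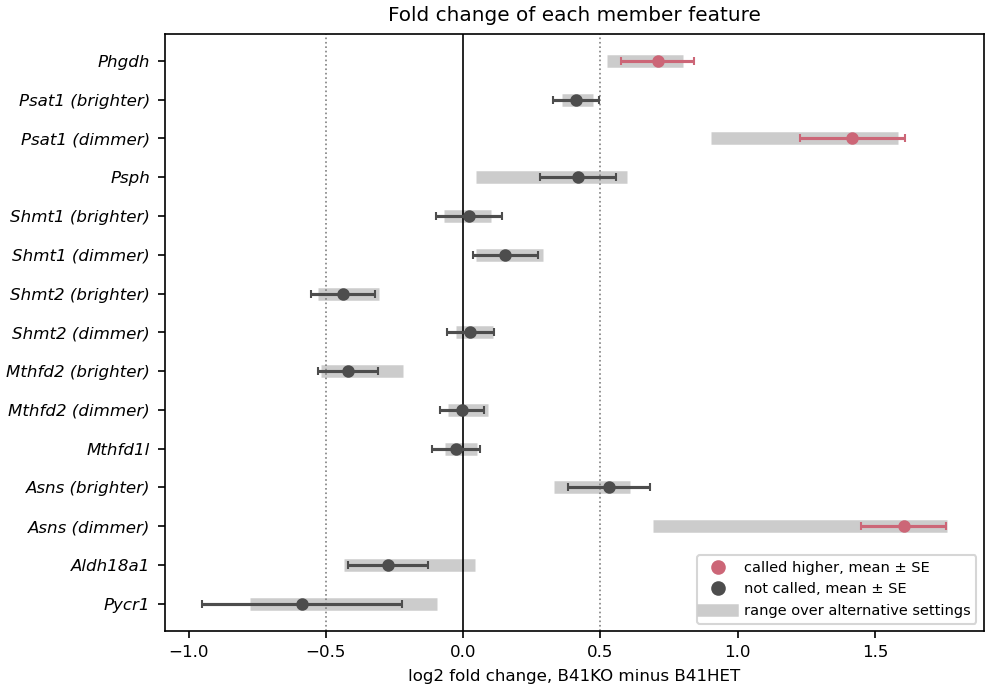
Log2 fold change (B41KO minus B41HET) of each of the 15 probes, as points with bars of ± SE, over grey bands that span all alternative settings of signal, normalization, block and arrays. Dotted lines mark the fold limit of 0.5 in each direction, and the bands of *Phgdh* and of the dimmer *Psat1* and *Asns* probes lie wholly above it.

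The plot of fold changes shows how far each difference moved with the processing. Among the 15 settings that left the probe itself in place, the sign was kept in all by *Phgdh*, *Pycr1*, both *Psat1* probes, both *Asns* probes, the dimmer *Shmt1* probe, and the brighter probes of *Shmt2* (-0.53 to -0.31) and *Mthfd2* (-0.52 to -0.22). *Aldh18a1* ranged from -0.43 to 0.04, with a positive value in 1 setting, the slide row block. *Mthfd1l*, the dimmer *Shmt2* and *Mthfd2* probes and the brighter *Shmt1* probe took both signs.

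The profiles of the genes over the 6 samples were compared by the root mean square distance between log2 signals centred on each gene's mean, as a description. The closest pairs among the 10 genes were *Aldh18a1* with *Mthfd2* (0.097), *Mthfd2* with *Shmt2* (0.11) and *Mthfd1l* with *Shmt1* (0.15), and *Asns* lay closest to *Psat1* (0.17). Over 23440 genes, the nearest profiles to *Phgdh* were *Ndufb4* (0.045), a subunit of respiratory complex I, *4930596I21Rik* (0.056) and *Enpp4* (0.082). The nearest to *Mthfd2* were *Megf11* (0.023), *Dnajc5* (0.025) and *Dda1* (0.035).

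The connected pathways were read from 10 lists of other genes, 125 in all. By the brightest probe 4 were called higher, 7 were called lower and 114 were not called, with a median log2 fold change of -0.004. Over all genes the shares called were 1.44% higher and 4.01% lower. The genotypes did not overlap in 51 of the 125, beside 32.2% of all genes. Adjusted p-values for these genes are from limma with Benjamini-Hochberg adjustment over all probes, and each list has few calls.

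Around serine itself, 0 of 15 genes listed for serine and glycine metabolism and handling were called (median -0.004). In the list of mitochondrial folate and glycine genes 0 of 13 were called (median 0.04). Of the carriers that feed this compartment, the serine carrier *Sfxn1* (-0.19, adjusted p = 0.160 by limma) and the folate carrier *Slc25a32* (-0.23, adjusted p = 0.142) were lower in every B41KO sample on their brightest probes without passing. Their other probes overlapped, at 0.003 for *Sfxn1* and, near background, 0.46 and 0.54 for *Slc25a32*, and so did the related *Sfxn2* (0.03) and *Sfxn3* (0.04). *Mthfd2l* (-0.03), the close relative of *Mthfd2*, *Aldh1l2* (0.27), the mitochondrial formyl folate dehydrogenase, and *Gldc* (0.40), of the glycine cleavage system, overlapped on their brightest probes and were not called. The second *Aldh1l2* probe, near background, had a log2 fold change of 0.93 without overlap and was not called either (adjusted p = 0.151).

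Among 13 cytosolic folate genes 0 were called (median -0.05). *Mthfd1*, the trifunctional cytosolic counterpart of the mitochondrial enzymes, had a log2 fold change of 0.11 (adjusted p = 0.504 by limma), and neither it nor thymidylate synthase *Tyms* (0.01) or *Aldh1l1* (-0.11) separated the genotypes.

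Of 13 purine synthesis genes *Impdh1*, the enzyme that opens the guanine branch, was called higher. Its log2 signals were 3.22, 2.83 and 2.69 in B41HET and 4.31, 3.88 and 4.05 in B41KO (log2 fold change 1.17, SE 0.18, adjusted p = 0.025 by limma). The probe was well above background on 1 of 3 B41HET arrays, and its log2 fold change was 0.18 with normexp, where the call was lost. Of 13 methionine cycle genes *Mat2a*, which makes S-adenosylmethionine, was called lower (-0.56, SE 0.08, adjusted p = 0.020), and so was *Ahcyl1* (-0.54, SE 0.11, adjusted p = 0.045). Neither was called on its other probes, which gave -0.28 for *Mat2a* and 0.28 and -0.35 for *Ahcyl1*, and both calls were lost with any 1 array left out.

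In the list of asparagine, aspartate and glutamine genes 1 of 13 was called higher. This was *Glud1*, glutamate dehydrogenase, with a log2 fold change of 0.68 (SE 0.13, adjusted p = 0.038 by limma) on the brighter probe. Its other probe had one of -0.17 (adjusted p = 0.316) and lay lower in every B41KO sample, so the probes of *Glud1* disagreed in direction. Of 12 amino acid carriers the proline carrier *Slc6a20a* was called higher (0.68, SE 0.12, adjusted p = 0.030). Of 10 tRNA synthetases mitochondrial *Sars2*, which charges serine, was called lower (-0.65, SE 0.10, adjusted p = 0.025). Leaving out 1 array ended the call of *Sars2* in 6 of 6 cases and those of *Glud1* and *Slc6a20a* in all but 1 case each.

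Proline and ornithine genes held the largest change of the lists. *Odc1*, ornithine decarboxylase, the entry to polyamine synthesis, gave 9.42, 9.43 and 9.43 in B41HET and 7.92, 7.89 and 7.70 in B41KO. That is a log2 fold change of -1.58 (SE 0.08, adjusted p = 0.002 by limma). Its other probe was called lower too (-0.76, adjusted p = 0.016), and the *Odc1* call was kept in 16 of 17 alternatives, all but the replicate block (adjusted p = 0.0574). The other 9 of the 10 genes of this list were not called (median of the list 0.02).

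The regulator *Atf4* was called lower on its brightest probe. Its log2 signals there were 11.78, 11.90 and 11.76 in B41HET and 10.80, 10.81 and 10.68 in B41KO, a log2 fold change of -1.05 (SE 0.08, adjusted p = 0.004 by limma), with the call kept in 15 of 17 alternatives and lost with either block. The second *Atf4* probe was not called and overlapped (-0.12, adjusted p = 0.435), so the probes did not give the same account of *Atf4*, and transcript signal is no measure of its protein, which is controlled at translation. In the list of *Atf4*, its activating kinases and early targets, 1 of 18 genes was called higher and 3 were called lower (median 0.04). *Ddit3*, which encodes the stress factor CHOP, was called lower (-0.77, SE 0.13, adjusted p = 0.032), as was the kinase *Eif2ak1* (-0.60, SE 0.09, adjusted p = 0.023), while *Ddit4*, an inhibitor of mTORC1, was called higher (0.58, SE 0.11, adjusted p = 0.040). The calls of *Ddit3* and *Ddit4* were lost with any 1 array left out and that of *Eif2ak1* with any but B41KO replicate 3.

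**Figure D3:**
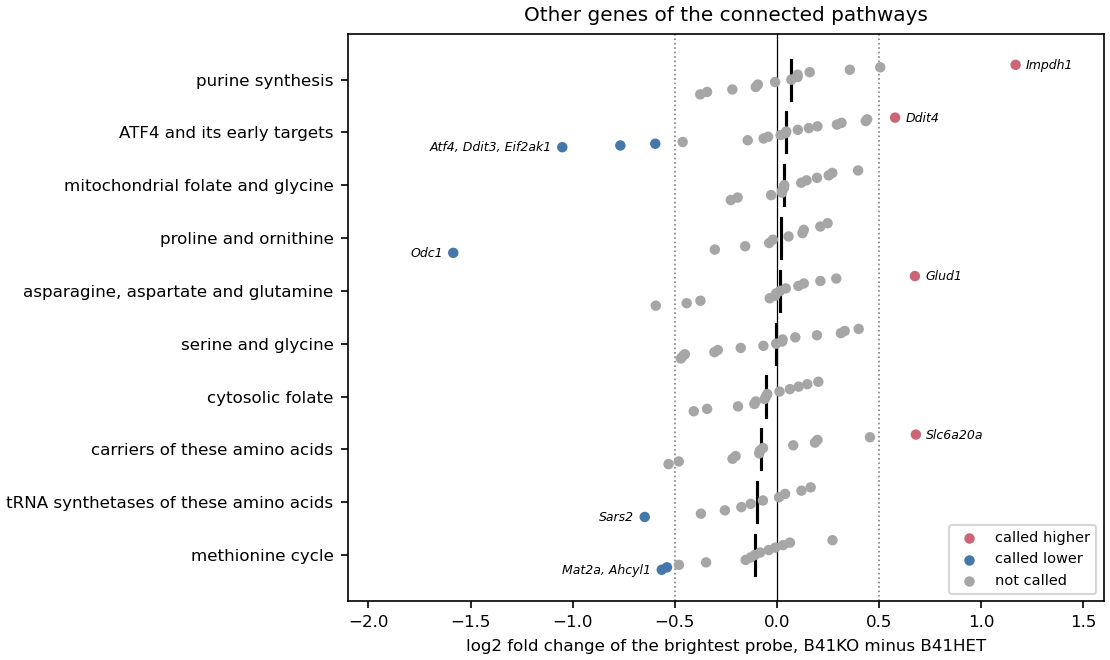
Log2 fold change (B41KO minus B41HET) of the brightest probe of each gene in the 10 lists of connected pathways, 1 point per gene, with a black bar at each list's median and dotted lines at the fold limit of 0.5. Named points passed the call, 4 to the right and 7 to the left, each list's names running from its largest change inwards, and all medians lie between -0.11 and 0.07.

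The plot of the lists shows medians near 0 with single genes apart from the rest. Apart from *Odc1* and *Atf4*, the other 9 of the 11 called genes lost their calls in at least 5 of the 6 fits that left out 1 array. The purine median of 0.07 and the methionine cycle median of -0.11 were the extremes.

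**Figure D4:**
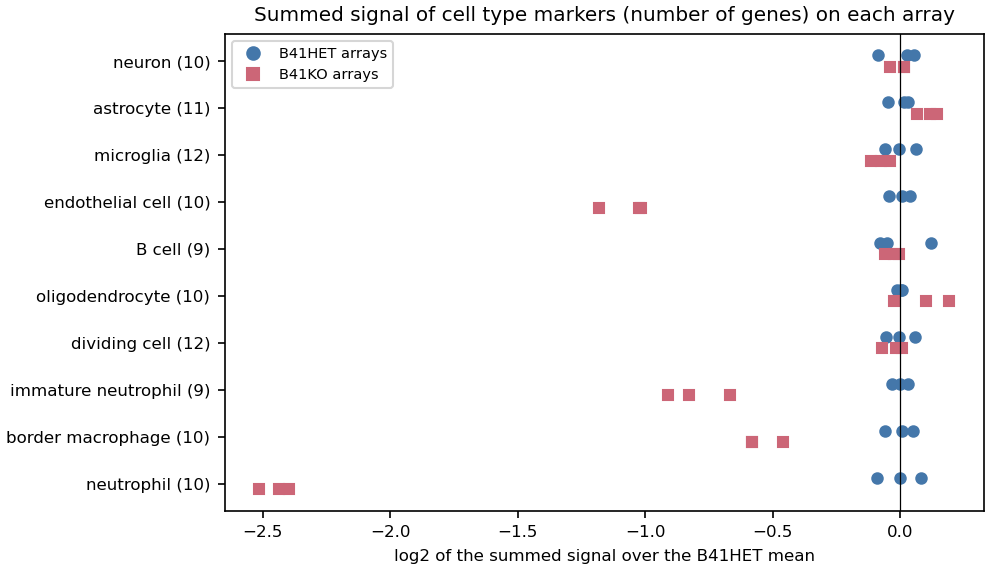
Summed signal of each list of cell type markers on each array, as log2 of the ratio to the B41HET mean, with circles for B41HET and squares for B41KO and the number of genes in brackets. Neutrophil, immature neutrophil and border macrophage sums lie lower on all 3 B41KO arrays, as does the endothelial sum through *Ly6c1* and *Pecam1*. Astrocyte sums lie slightly higher, and microglia, neuron (mostly *Snap25*) and B cell sums lie near 0.

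The plot of marker sums gives the cell type background of all values above. The lists with the lowest medians in B41KO were those of neutrophils (-2.49), border macrophages (-1.06), immature neutrophils (-0.97) and dividing cells (-0.32). The endothelial median was -0.07 and the microglia median -0.05. The neuron sum, 20400 to 22470 in B41HET and 21060 to 21880 in B41KO, is dominated by *Snap25* (-0.004). Of the 10 neuron markers, 5 were well above background on all 6 arrays. The oligodendrocyte sum was 1996 to 2021 in B41HET and 1977 to 2299 in B41KO, and the B cell sum 2312 to 2656 and 2341 to 2432.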

How the data were processed

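The authors deposited scanner intensity values of 1-colour Cy3 arrays made with Feature Extraction 11.5.1.1, with background subtracted per array and no normalization across arrays, beside processed log2 values. The latter had equal quantiles on all arrays, their scale is not stated in the sources used here, and they served as an alternative. Control spots were left out (59305 of 62976 spots kept), as were 95 to 136 outlier spots per array. The log2 processed signals were quantile normalized, averaged per probe and fitted with limma 3.58.1 in R 4.3.3, with genotype as the only term, and Benjamini-Hochberg adjustment ran across the 56601 probes tested. The study's methods name quantile normalization, limma 3.54.2 and the limits of 0.05 and 0.5. Transcript accessions matched to RefSeq genes on GRCm38.p6 named 33767 probes (59.7%). The array design names mm9, so probe positions are not given.

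The 10 genes and all lists were chosen with earlier results of these data known. From the pathway lists, called genes were named, at most 4 per direction and list, beside a set of counterpart genes taken whatever their values. *Amd1* had no named probe, and some list genes are not reported here. P-values measure the spread between these samples, which the labels call biological replicates. The model was tested on simulated data. Alternatives were a 75th percentile shift, the authors' log2 values, normexp (offset 50) on median spot signals, only probes distinct from background on at least 3 arrays, no removal of outlier spots, trend and robust variance, replicate block, slide row block, each array left out, no fold limit, the mean over a gene's probes and the probe with the lowest p. Python 3.11.15 and matplotlib 3.10.9 drew the figures. A planned comparison of protein sequences was not run.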

Additional observations from a re-analysis of the deposited data

How the results depend on the processing

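The count of the 10 genes called higher, 1 in the values above, became 0 with the replicate block, 0 with the slide row block and 0 to 0 with each array left out. It became 2 with no fold limit (*Phgdh* and *Psat1*) and 3 both with the mean over a gene's probes and with the probe of the lowest p. The count called lower was 0 throughout these alternatives. The 4 pathway genes called higher became 2 with normexp, 0 with the replicate block, 0 with the slide row block and 0 to 2 with each array left out. The 7 called lower became 0, 1 and 2 to 3 with the replicate block, the slide row block and each array left out, and 11 both with no fold limit and with the probe of the lowest p. Over all genes, the 339 called higher became 153 with normexp, 2 with the replicate block, 84 with the slide row block and 86 to 182 with each array left out, and the 940 called lower became 19, 116 and 281 to 519 with the latter 3. Other counts stayed within 1.5 times.

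Deviations of same-numbered samples had correlations of 0.028, 0.014 and 0.048, beside -0.051 to 0.028 for samples with different numbers. All are small, and they cannot show whether the replicate numbers pair the samples. Calls lost under the replicate block are thus given without choosing between the fits.

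Some genes that were not called changed sign. *Mthfd2l* was 0.087 with the 75th percentile shift, 0.017 with normexp, and -0.14 to 0.10 with each array left out. *Tyms* was -0.017 with normexp and -0.070 to 0.079 with each array left out. *Aldh1l2* was -0.080 with the slide row block, and *Slc25a32* was 0.26 as the mean over its probes. The causes were not tested. The slide row fit rests on 1 B41KO array. Signals of *Psph*, *Pycr1* and *Impdh1* near background and 3 arrays per genotype limit what these values can show.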
